A study of Mus musculus with 13 samples.

Results

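The Wnt ligand loci described here are 5 windows of the mouse genome (build mm9) that hold the genes Wnt1, Wnt3, Wnt3a, Wnt6, Wnt7b, Wnt9a, Wnt9b, Wnt10a and Wnt10b. The windows, in Mb, run from 103.55 to 103.7 on chromosome 11 (Wnt9b and Wnt3), from 59 to 59.16 on chromosome 11 (Wnt3a and Wnt9a), from 98.57 to 98.65 on chromosome 15 (Wnt10b and Wnt1), from 74.78 to 74.87 on chromosome 1 (Wnt6 and Wnt10a) and from 85.32 to 85.42 on chromosome 15 (Wnt7b). Every H3K27me3 peak that overlapped a window by at least 1 bp was taken. This gave 16 of the 2245 peaks in the deposited lists, 8 of 1053 with H3.1K27M and 8 of 1192 with H3.3K27M. They formed 9 of the 1383 regions that result when overlapping peaks of both lists are joined.

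The study mapped chromatin by immunoprecipitation and sequencing (ChIP-seq) in mouse embryonic fibroblasts carrying lentiviral histone H3 mutants. One group expressed H3.1K27M and the other H3.3K27M, in which lysine 27 of the replication-coupled or the replication-independent form of H3 is a methionine. Both groups were precipitated with the same monoclonal antibody to H3K27me3, and each has 2 replicate samples but 1 peak list. The K27R mutants, the empty control, and the EZH2 and FLAG precipitations were not analysed here. No label states whether the cells are 1 clone, which promoter drives the transgene, or how much wild-type H3 remains. Peak lists hold no expression values, so the labelled cell type could not be checked against marker genes. With 1 list per group there is no spread between replicates, and no difference below carries a test.

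Trimethylation of histone H3 at lysine 27 (H3K27me3) is the product of Polycomb repressive complex 2 (PRC2), and K27M histones are known inhibitors of that complex. PRC2 typically marks CG-rich promoters of developmental genes that are silent in a given cell type, and Wnt genes are a well-known class of such targets. Wnt proteins are secreted, lipid-modified ligands that bind Frizzled receptors and, in the β-catenin branch of the pathway, the co-receptors Lrp5 and Lrp6. Mammalian Wnt genes often lie in linked groups: Wnt3 with Wnt9b and its paralogous pair Wnt3a with Wnt9a, and Wnt1 with Wnt10b and its relatives Wnt6 with Wnt10a. In the RefSeq gene order of the later build GRCm38.p6, no other protein-coding gene starts between the members of any of these 4 pairs. RefSeq places Wnt9b and Wnt3, Wnt3a and Wnt9a, and Wnt10b and Wnt1 on opposite strands. In each of these pairs the starts lie at the inner ends of the genes and transcription runs outward.

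RefSeq promoters were matched by symbol for 7 of the 9 genes, and Wnt7b and Wnt10a had no entry. The bases before the transcription start are shown for the pair in the window with the most shared peaks (Wnt9b and Wnt3), the pair in the window with the largest width difference (Wnt3a and Wnt9a) and Wnt6, whose window had a peak in a single list. Each run is the 250 bases before the start, 5′ to 3′ on the gene's own strand, with every CG dinucleotide in capitals. Positions are on GRCm38.p6 and cannot be set beside the mm9 positions of the peaks, so whether a given peak covers these bases was not tested. The Wnt9b promoter lies on the minus strand at chr11:103749822-103750071, Wnt3 on the plus strand at chr11:103773925-103774174, Wnt3a on the minus strand at chr11:59290752-59291001, Wnt9a on the plus strand at chr11:59306680-59306929 and Wnt6 on the plus strand at chr1:74771642-74771891.
Wnt9b: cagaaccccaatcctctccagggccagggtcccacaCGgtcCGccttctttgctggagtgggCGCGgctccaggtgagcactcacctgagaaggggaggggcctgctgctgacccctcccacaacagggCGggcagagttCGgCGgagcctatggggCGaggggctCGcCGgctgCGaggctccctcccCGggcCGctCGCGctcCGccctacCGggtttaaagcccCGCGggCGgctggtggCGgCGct
Wnt3: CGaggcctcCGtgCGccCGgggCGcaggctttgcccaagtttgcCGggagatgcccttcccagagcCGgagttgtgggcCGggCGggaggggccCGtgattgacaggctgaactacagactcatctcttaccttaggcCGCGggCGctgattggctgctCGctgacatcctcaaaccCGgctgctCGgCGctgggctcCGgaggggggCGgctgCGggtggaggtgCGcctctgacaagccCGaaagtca
Wnt3a: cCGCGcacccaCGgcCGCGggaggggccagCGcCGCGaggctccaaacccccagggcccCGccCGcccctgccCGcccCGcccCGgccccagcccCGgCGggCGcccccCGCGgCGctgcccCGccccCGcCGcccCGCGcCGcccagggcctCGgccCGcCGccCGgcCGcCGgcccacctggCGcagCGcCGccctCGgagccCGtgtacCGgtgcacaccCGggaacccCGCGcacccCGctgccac
Wnt9a: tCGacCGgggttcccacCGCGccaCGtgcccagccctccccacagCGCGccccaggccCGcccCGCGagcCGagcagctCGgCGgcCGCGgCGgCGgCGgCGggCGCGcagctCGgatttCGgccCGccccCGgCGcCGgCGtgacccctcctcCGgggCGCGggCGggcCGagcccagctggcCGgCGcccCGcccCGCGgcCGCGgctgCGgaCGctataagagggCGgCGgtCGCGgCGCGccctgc
Wnt6: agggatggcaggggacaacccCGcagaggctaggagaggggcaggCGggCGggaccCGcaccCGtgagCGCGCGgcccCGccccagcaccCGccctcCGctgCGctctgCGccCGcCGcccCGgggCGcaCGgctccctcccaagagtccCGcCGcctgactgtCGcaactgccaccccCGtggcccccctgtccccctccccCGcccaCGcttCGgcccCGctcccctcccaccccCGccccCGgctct

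All 7 matched promoters held more CG than the median promoter. The motif CG reads the same on both strands and was counted without overlap. Wnt9a held 48 CG dinucleotides, a number that 0.186% of the 32841 RefSeq promoter windows reached, and Wnt3a held 41, which 1.09% reached. Wnt6 held 28 (7.61% reached it), Wnt1 held 23 (13.3%), and Wnt3 and Wnt9b held 22 each (14.8%). Wnt10b, with 14, was the lowest (29.4%). The median over all promoters was 6, with quartiles of 2 and 16, so 6 of the 7 lay above the upper quartile and Wnt10b between the median and the upper quartile. The share of G and C ran from 66.8% (Wnt10b) to 87.6% (Wnt3a) against a median of 52.4% over all promoters. Start sites of the same gene count separately in that background, and the share is a description of these letters.

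**Figure D1:**
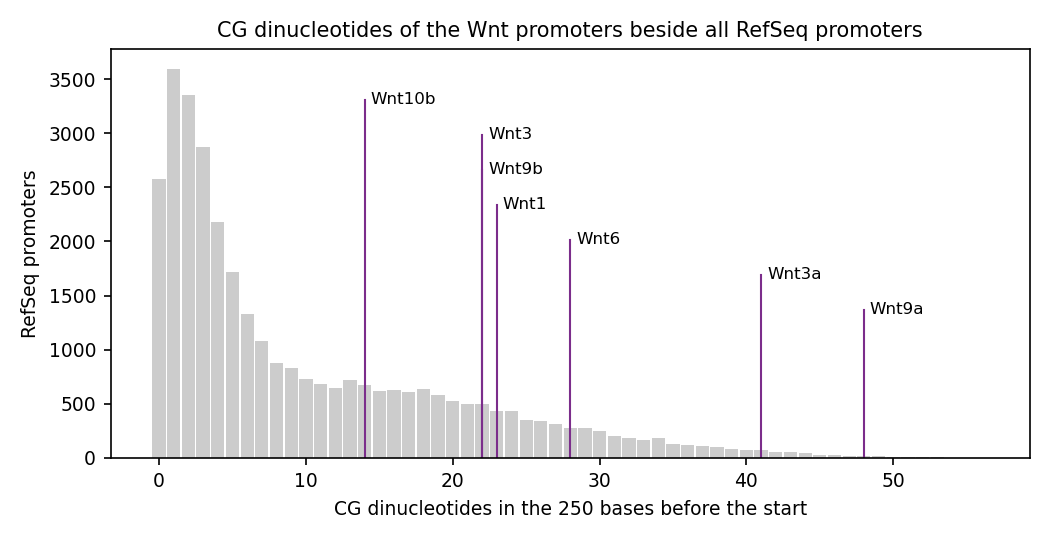
Number of RefSeq promoters (vertical axis) by their count of CG dinucleotides in the 250 bases before the start (horizontal axis). Grey bars are all 32841 promoters and purple lines the 7 Wnt promoters, which run from 14 for Wnt10b to 48 for Wnt9a; line heights only separate the labels.

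The pair Wnt9b and Wnt3 had the most H3K27me3 peaks of the 5 windows, 4 in each mutant, and each peak had its counterpart in the other list. Wnt9b is needed for kidney tubule formation and Wnt3 for gastrulation. In order along the chromosome, the H3.1K27M peaks were 11.4, 10.4, 3.40 and 8.40 kb wide and the H3.3K27M peaks 12.4, 11.6, 6.20 and 9.20 kb. The mutants thus differed little in 3 of the 4 peaks, with width ratios (H3.3K27M over H3.1K27M) of 1.09, 1.12 and 1.10, while the third peak was 1.82 times wider with H3.3K27M. In H3.3K27M cells these peaks lay at 103605401 to 103617799, 103627401 to 103638999, 103654001 to 103660199 and 103667001 to 103676199 (mm9).

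The 4 domains at Wnt9b and Wnt3 stayed separate in both mutants. The gaps between neighbouring peaks were 10.4, 16.6 and 8.60 kb with H3.1K27M and 9.60, 15.0 and 6.80 kb with H3.3K27M. The last of the 4 began at the same base in both lists. Together the peaks took up 22.4% of the 150 kb window with H3.1K27M and 26.3% with H3.3K27M, 33.6 and 39.4 kb in all, a ratio of 1.17. The window thus held more of the mark's called length than any of the other 4 in both mutants.

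The paralogous pair Wnt3a and Wnt9a showed a different layout and the largest width difference among the Wnt regions. Wnt3a drives tail and somite formation and is the ligand most used to activate β-catenin signalling in culture, and Wnt9a acts in joint formation. H3.1K27M cells had 1 peak of 9.20 kb, at 59097401 to 59106599 on chromosome 11 (mm9). H3.3K27M cells had a peak of 20.8 kb over the same place, at 59091801 to 59112599. It contained the H3.1K27M peak whole, began 5.60 kb before it and ended 6 kb after it.

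A width ratio of 2.26, as at Wnt3a and Wnt9a, was exceeded in 71 of the 807 regions with exactly 1 peak of each list. The H3.3K27M list had a second peak in this window, of 4.40 kb at 59076201 to 59080599, with no H3.1K27M counterpart. It lay 11.2 kb from the broad peak of its own list and 16.8 kb from the H3.1K27M peak. Covered length in the window was 9.20 kb with H3.1K27M and 25.2 kb with H3.3K27M, a ratio of 2.74, the highest of the 4 windows with peaks in both lists. That rank depended on the window edges. With windows widened by 50 kb the log2 ratio went from 1.45 to 0.92, below the 1.00 of Wnt10b and Wnt1.

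The pair Wnt10b and Wnt1 had 1 peak in each mutant. Wnt1 is required for the midbrain, and Wnt10b favours bone over fat differentiation. The peak was 4.40 kb with H3.1K27M (98620201 to 98624599 on chromosome 15, mm9) and 8.80 kb with H3.3K27M (98619801 to 98628599). The width ratio was 2. Nearly all of the added width lay on one side: the starts differed by 0.4 kb and the ends by 4 kb. Positions in the files lie on a grid of 200 bp, so the starts were 2 steps apart and the ends many.

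The single gene Wnt7b, a ligand of lung, kidney and brain vessel development, also had 1 peak in each mutant. Its peak was 8.20 kb with H3.1K27M (85405401 to 85413599 on chromosome 15, mm9) and 10.2 kb with H3.3K27M (85403601 to 85413799), a ratio of 1.24. The extension lay at the start here, by 1.8 kb, whereas the ends were 0.2 kb apart, a single grid step. The peak lay close to the right edge of its window, which it cleared by 6.20 kb with H3.3K27M.

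Wnt6 and Wnt10a were the pair with the least H3K27me3 called. Wnt6 is expressed in many embryonic epithelia, and loss of WNT10A function impairs teeth and hair. H3.1K27M cells had a single peak of 1999 bp, at 74828801 to 74830799 on chromosome 1 (mm9), and the H3.3K27M list had none in the window. Only 81 of the 1053 H3.1K27M peaks were as narrow or narrower. The nearest H3.3K27M peak lay 61.0 kb away, outside the window, and was 16.8 kb wide with an H3.1K27M partner of 7.40 kb. H3.3K27M peaks were thus called nearby, while at the Wnt6 and Wnt10a peak itself none was. Neither the depth nor the threshold behind the lists is known, and a peak missing from a list was not read as absence of the mark.

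**Figure D2:**
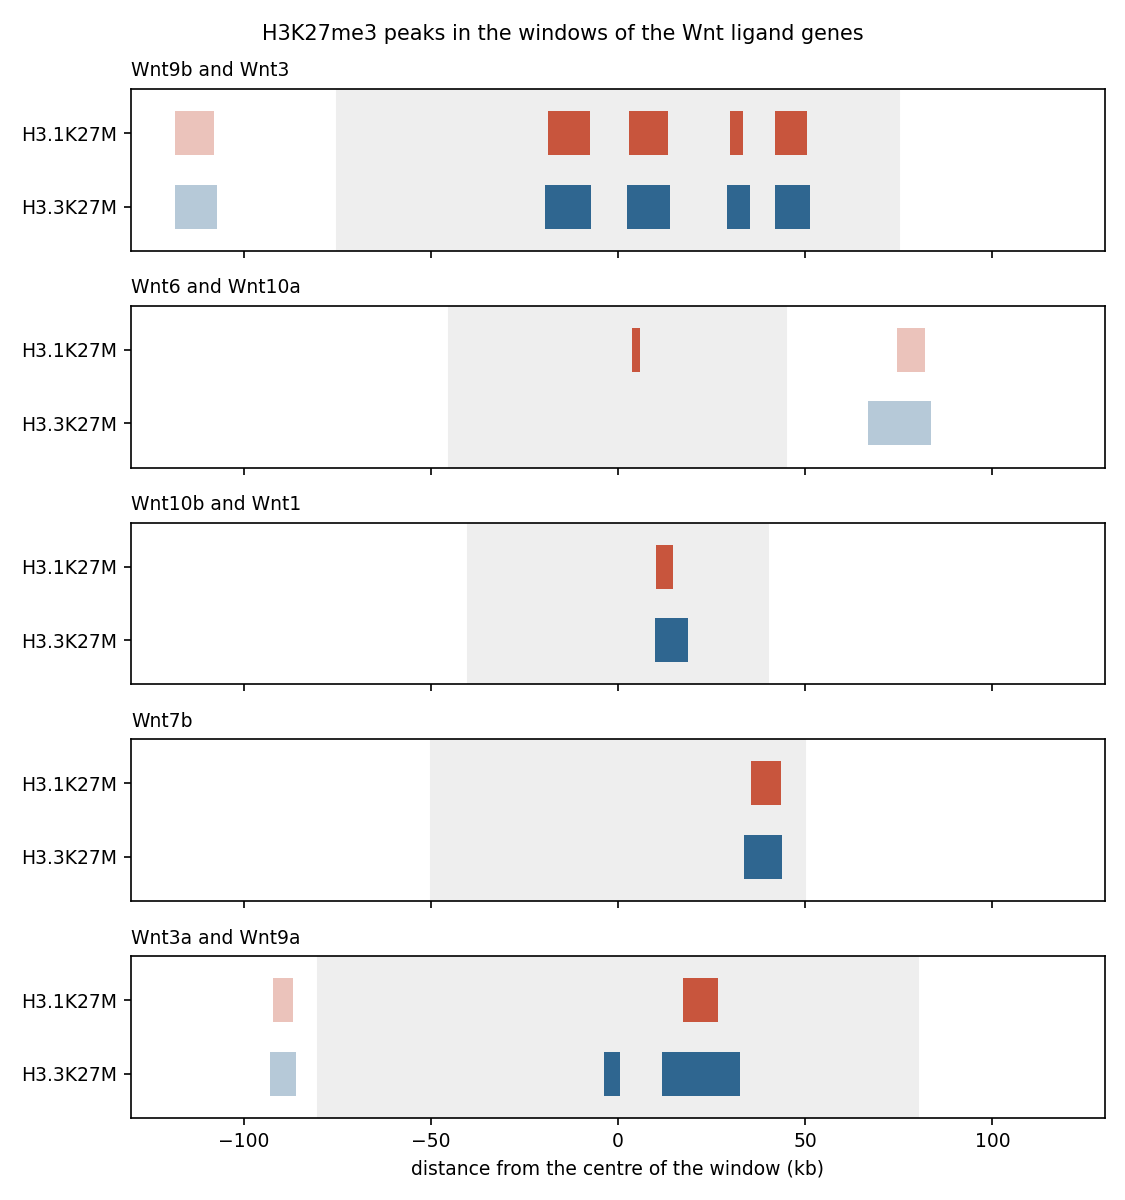
H3K27me3 peaks of both mutants in the 5 Wnt windows, by distance from the centre of each window in kb. Grey shading is the window, full colours are the peaks in it, and pale bars are the nearest peaks outside it; Wnt9b and Wnt3 have 4 peaks in each list, and the Wnt6 and Wnt10a window has 1 narrow H3.1K27M peak alone.

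Most Wnt peaks were called in both mutants. In each list 7 of 8 peaks (87.5%, exact 95% Clopper-Pearson interval 47.3 to 99.7%) overlapped a peak of the other. Over the whole lists the share was 81.2% of H3.1K27M peaks and 70.3% of H3.3K27M peaks. Both lie inside the wide interval of the Wnt peaks, which covers counting error only and takes neighbouring peaks as independent. The exceptions were the narrow peak at Wnt6 and Wnt10a and the second H3.3K27M peak at Wnt3a and Wnt9a. Of the 198 H3.1K27M peaks without a partner, 47 were as narrow as the former or narrower, and of the 354 H3.3K27M peaks without a partner 151 were as narrow as the latter or narrower. With a reciprocal overlap of 50% required, the peaks of Wnt3a and Wnt9a and of Wnt10b and Wnt1 lost their partners too, leaving 62.5% in each list. The Wnt10b and Wnt1 peaks missed this rule narrowly, with a common part of 49.99% of the H3.3K27M peak.

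In deposited widths the H3.3K27M peak was the wider one in all 7 shared Wnt regions, against 77.7% of the 807 regions with 1 peak of each list. With widths divided by the total covered length of their list, it was wider in 3 of the 7 and narrower in 4, against 41.5% wider of the 807. The 4 that turned were the first, second and last peaks of Wnt9b and Wnt3 (log2 ratios of -0.32, -0.28 and -0.31) and the Wnt7b peak (-0.13). In deposited widths the median log2 ratio, H3.3K27M over H3.1K27M, was 0.31 over the 7 Wnt regions (from 0.12 to 1.18) and 0.33 over all 807 (SD 0.60 between regions). A ratio of at least 1.5 in favour of H3.3K27M was met by 3 of the 7, against 30.0% of all regions. These 3 were Wnt3a and Wnt9a, Wnt10b and Wnt1, and the third peak at Wnt9b and Wnt3. None of the 7 met it in favour of H3.1K27M, against 4.96% of all regions. The Wnt median thus lay close to that of all regions. Divided by the list totals, the medians were -0.13 and -0.11. This division shifts every log2 ratio by the same amount, so it could not change the distance between the medians.

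**Figure D3:**
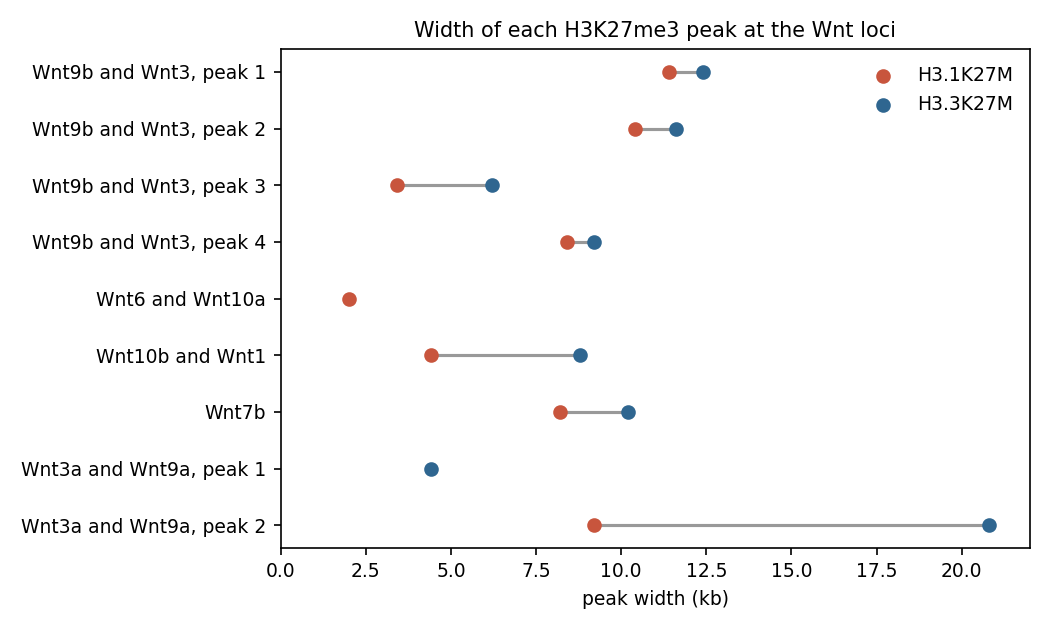
Peak width in kb (horizontal axis) for each of the 9 Wnt regions, in H3.1K27M (red) and H3.3K27M (blue), with a grey line joining peaks that overlap. In these deposited widths every joined pair has the H3.3K27M peak at the right, from 1.09 times at the first peak of Wnt9b and Wnt3 to 2.26 times at Wnt3a and Wnt9a.

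The 7 Wnt regions varied among themselves, with a log2 SD of 0.46 beside the 0.60 of all regions. The Wnt9b and Wnt3 window weighs heavily in the median, since it gives 4 of the 7 regions: its own median was 0.14, and the median over the remaining 3 regions was 1.00. Without the Wnt7b region, the median was 0.51. Regions with a total span of 9 kb or more had a median of 0.29 (376 regions) and narrower ones 0.37 (431 regions). Of the Wnt regions 5 belonged to the wider class, with a median of 0.16, and 2 to the narrower class, with 0.87 at the third peak of Wnt9b and Wnt3 and 1.00 at Wnt10b and Wnt1. Span includes the H3.3K27M width, so these classes are not independent of the ratio.

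**Figure D4:**
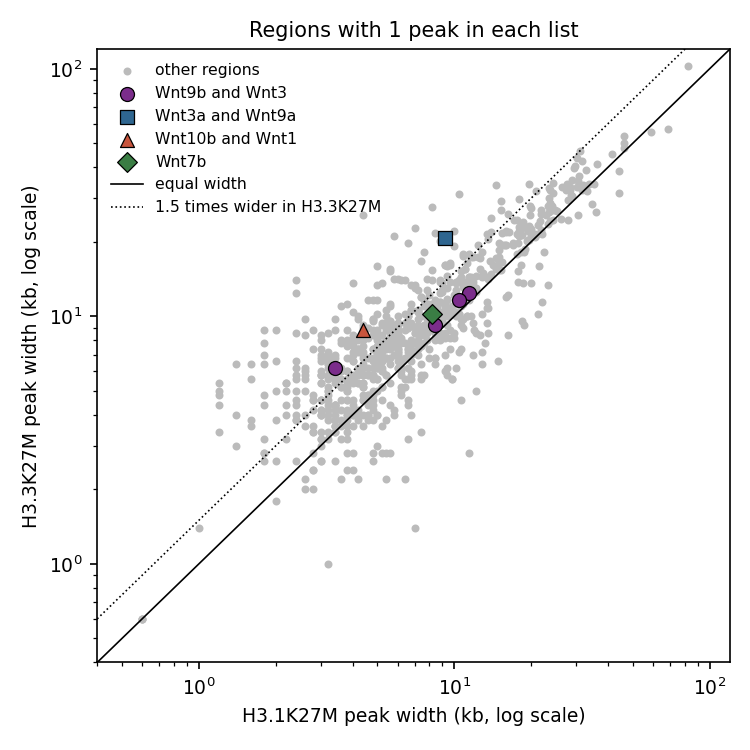
Width of the H3.3K27M peak against width of the H3.1K27M peak, in kb on log axes, for the 807 regions with 1 peak of each list. The 7 Wnt regions (coloured) lie above the line of equal width and inside the cloud of the other regions (grey), 3 of them above the dotted line of 1.5 times; after division by the list totals 4 of the 7 would lie below equality.

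Summed over all 5 windows, the peaks covered 57.4 kb with H3.1K27M and 83.6 kb with H3.3K27M, a ratio of 1.46 (0.54 on the log2 scale), beside 1.36 (0.44) for the whole lists. Taking the whole-list ratio off left 0.10 over the 5 windows. It left 1.01 for Wnt3a and Wnt9a and 0.56 for Wnt10b and Wnt1, while Wnt9b and Wnt3 (-0.21) and Wnt7b (-0.13) turned to the other side. Relative to its list, therefore, the called length at those last 2 windows was lower with H3.3K27M. Without the Wnt3a and Wnt9a window the summed log2 ratio, with nothing taken off, was 0.28, and without Wnt9b and Wnt3 it was 0.89.

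The H3.3K27M peak passed both edges of the H3.1K27M peak in most shared Wnt regions, though by little at some edges. The H3.3K27M peak reached past the H3.1K27M peak on both sides in 6 of 7, against 61.3% of all regions, and the exception was the last peak of Wnt9b and Wnt3, with its shared start. Median reach was 0.8 kb at the start and 0.8 kb at the end, the same as over all 807 regions. Reach was uneven within a region at Wnt10b and Wnt1 (0.4 and 4 kb) and at Wnt7b (1.8 and 0.2 kb). It was also uneven at the first Wnt9b and Wnt3 peak (0.8 and 0.2 kb), and nearly even at Wnt3a and Wnt9a (5.6 and 6 kb). A reach of 0.2 kb is 1 grid step, so the 6 of 7 rests in part on offsets of that size. The 61.3% was counted by the same rule. The common part made up 91.9, 89.7, 54.8 and 91.3% of the span of the 4 Wnt9b and Wnt3 regions. It made up 80.4% at Wnt7b, 50% at Wnt10b and Wnt1 and 44.2% at Wnt3a and Wnt9a, against a median of 72.2% over all regions. In deposited positions, if every edge were moved by 1 grid step against the difference, the H3.3K27M peaks would still be wider in 6 of the 7, and the last peak of Wnt9b and Wnt3 would be equal in both.

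**Figure D5:**
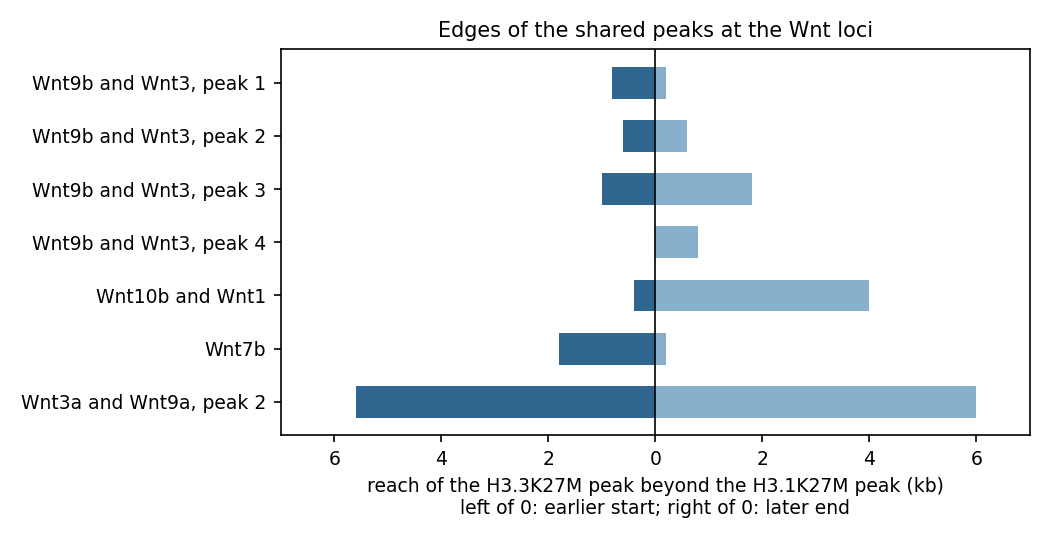
Distance in kb by which the H3.3K27M peak starts before (left, dark) and ends after (right, light) the H3.1K27M peak in the 7 shared Wnt regions. The reach is 5.6 and 6 kb at Wnt3a and Wnt9a, lies almost wholly at the end at Wnt10b and Wnt1, and is 0 at the start of the last Wnt9b and Wnt3 peak.

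Within their own lists the Wnt peaks ranged from narrow to fairly broad. In H3.1K27M cells their median was 8.30 kb against 5.60 kb for all peaks, and 5 of 8 were at or above the list median. In H3.3K27M cells the medians were 9.70 and 7.20 kb, and 6 of 8 were at or above it. The widest Wnt peak of the H3.1K27M list, the first at Wnt9b and Wnt3, had 204 wider peaks in its list. The widest of the H3.3K27M list, at Wnt3a and Wnt9a, had 123. The locus of the widest single peak thus differed between the mutants, while Wnt9b and Wnt3 had the most called length in both. The Wnt10b and Wnt1 peak stood below the median with H3.1K27M, where 650 peaks were wider, and above it with H3.3K27M, where 423 were.

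The windows differed in how near other H3K27me3 peaks lay. Around the Wnt10b and Wnt1 peak the nearest H3.1K27M peaks lay 618.6 kb to the left and 301.8 kb to the right, and the H3.3K27M ones 615.6 and 296.6 kb away. The Wnt7b peak had none within 145.8 kb in the H3.1K27M list or 147.4 kb in the H3.3K27M list. To the right of Wnt3a and Wnt9a the next peak was 1725 kb away with H3.1K27M and 1718 kb with H3.3K27M. On its left, a shared peak of 5.40 and 6.80 kb lay just outside the window edge, by 6.80 kb with H3.1K27M and 6 kb with H3.3K27M. From the outermost peak in the window, that shared peak was 104.2 kb away with H3.1K27M and 82.2 kb with H3.3K27M. The nearest peaks outside the windows, on both sides and in both lists, all overlapped a peak of the other list. Over the whole lists 81.2% of H3.1K27M peaks and 70.3% of H3.3K27M peaks did. On each side the nearest peaks of both lists overlapped each other, so each shared region was counted once per list.

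Other Wnt ligands (such as Wnt2, Wnt4, Wnt5a, Wnt8b and Wnt11) and the receptors, inhibitors and targets of the pathway were listed for comparison but not analysed here, because the gene table at hand describes a later build than the peaks. For the same reason peaks were assigned to windows and not to the start or body of a gene, and within a pair of genes no peak is attributed to either.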

How the data were processed

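H3K27me3 ChIP-seq of mouse embryonic fibroblasts expressing H3.1K27M or H3.3K27M was analysed from 1 deposited peak list per group. The submitters' processing notes name the build mm9, Bowtie 1.0.0 and deepTools. For peak calling and the pooling of replicates, no method was given in the sources used here. Each deposited list gives start, end and width in bp on a 200 bp grid, with no height or p-value, so depth is unknown, and a deeper library or looser threshold gives more and wider peaks.

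Windows, genes and lists were chosen with earlier results of these data known. All 9 member genes are named, by a rule that excludes none. Peaks sharing at least 1 bp were joined into regions, and width ratios were taken as log2 (H3.3K27M over H3.1K27M) in regions with 1 peak of each list. Positions count from 1. A peak was counted as wider at any ratio above 1, and as past the fold at a ratio of at least 1.5. No test was run, since each group has 1 list. Overlap and ratio code was tested on simulated data. Promoters came from RefSeq (GRCm38.p6). No protein table was used, so the planned protein comparison was not run. Python 3.11.15, numpy 2.4.6, pandas 2.3.3, scipy 1.17.1 and matplotlib 3.10.9 were used.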

Additional observations from a re-analysis of the deposited data

How the results depend on the processing

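No paired analysis was possible because there is 1 peak list per group, with no replicate to omit. Whether a list draws on both replicates is not stated. Leaving out single windows, moving edges by a grid step and dividing single widths and their median by the list totals were chosen after seeing the data. Keeping only the peaks no narrower than their list median left 5 H3.1K27M peaks, of which 100% had a partner. A reciprocal overlap of 50% brought the median log2 width ratio to 0.16 over 5 regions, since the regions with the most unequal widths drop out by construction. Without the Wnt9b and Wnt3 window that median was 1.00, and without Wnt7b 0.51. The log2 ratio of summed covered length went from 0.54 to 0.10 when divided by the list totals, to 0.89 without Wnt9b and Wnt3 and to 0.28 without Wnt3a and Wnt9a. Division by the list totals reversed the log2 covered length ratio of Wnt9b and Wnt3 (-0.21) and of Wnt7b (-0.13). It also reversed the log2 width ratios of the first, second and last Wnt9b and Wnt3 peaks (-0.32, -0.28 and -0.31) and of the Wnt7b peak (-0.13), and with it the median over the 7 regions (-0.13). The other 25 values over all windows stayed within set limits, but part of them could not move, as described below. The limits were 1.5 times for a count, the exact interval for a share and 0.1 for a log2 ratio. These limits are wide: peak counts went from 8 to 12 in each list with windows widened by 50 kb, partner shares from 87.5 to 62.5% with the reciprocal overlap, and the count past the fold from 3 to 2 at a fold of 2. Merging peaks under 5 kb apart could not change a value, since the smallest gap between neighbouring peaks in a window was 6.80 kb. Cutting peaks at the window edges could not either, as no peak crossed an edge. Summing widths was void too, because every shared Wnt region had 1 peak of each list. Leaving out Wnt6 and Wnt10a could not move the median, as that window had no shared region. No H3.1K27M peak could be past a fold of 2, since none was past 1.5. Widening the windows by 50 kb lowered the log2 covered length ratio of Wnt3a and Wnt9a to 0.92, below the 1.00 of Wnt10b and Wnt1. Of the values for single windows and regions, 13 stayed within 0.1 on the log2 scale and 11 moved further without reversing. Most of the 13 could not move: they came from merging, from edge cuts, or from widening at Wnt10b and Wnt1 and at Wnt7b. Neither of these windows had an outside peak within 50 kb. The unknown depth limits every statement on a peak missing from a list.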
